A study of Mus musculus with 2 samples.

Results

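Metallothionein and antioxidant enzyme transcripts were followed through the cells of the mouse dorsal meninges 1 week after a mild traumatic brain injury (TBI) or a Sham procedure. The genes were chosen by symbol: Mt1, Mt2, Mt3, Sod1, Sod2, Sod3, Gpx1, Gpx3, Prdx1 and Cat, which are 10 of the 32285 genes in the count matrices. Each of the 10 had 1 row in the matrices and at least 1 unique molecular identifier (UMI), the tag that marks a captured RNA molecule. Together they took 20300 UMIs of the Sham cells (0.258% of the total) and 42774 of the TBI cells (0.307%).

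Both groups were male mice, of strain C57BL/6 in the labels and C57BL/6J wild type in the study's methods, given as 10 weeks old in one label and as 10 to 12 weeks in another. TBI mice received a single impact on the closed skull, and Sham mice received the same anaesthesia with the impactor held off the head. The meninges of 5 mice were pooled into 1 library per group, the impact site was left out, and live DAPI-negative single cells were sorted before about 4000 were loaded for 3′ droplet sequencing. With 1 library per group there is no test of TBI against Sham: every ratio below compares these libraries, and every 95% interval (exact Poisson for levels, exact binomial for ratios and shares) covers counting error only.

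The filtered libraries held 2043 Sham and 3773 TBI cells with 7866611 and 13940740 UMIs, and median depths of 2764 and 2663 UMIs per cell. Of all barcodes, 604 Sham (22.4%) and 431 TBI (9.91%) were over the limit of 5% hemoglobin and were set aside, and 14 barcode sequences occurred in both filtered libraries. Hemoglobin transcripts were also uneven in the cells that stayed, at 1595 CPM (UMIs per 1000000 UMIs) in Sham and 279 CPM in TBI. The cells were clustered without the 10 genes, and clusters were named from markers. A class name below stands for cells like that type, with 5 to 13 of its markers among the 50 leading genes of each named cluster. Of the 26 clusters, 3 stayed unnamed, with 10.3% of Sham and 17.2% of TBI cells.

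Metallothioneins are small cysteine-rich proteins that bind zinc and copper. Mt1 and Mt2 are made in many tissues and are induced by metals, glucocorticoids and oxidative stress, while Mt3 is known best from the brain. Superoxide dismutases turn superoxide into hydrogen peroxide in the cytosol (Sod1), in mitochondria (Sod2) or outside the cell (Sod3). The peroxide is then removed by glutathione peroxidases (Gpx1 inside cells, Gpx3 secreted), by the peroxiredoxin Prdx1 and by catalase (Cat).

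Mt1, Mt2 and Mt3 lie side by side on the plus strand of chromosome 8 (GRCm38, GENCODE annotation, all protein-coding), at chr8:94179082-94180327, chr8:94172664-94173568 and chr8:94152607-94154146. Their promoters are shown because, among classes with at least 20 cells per library, Mt1 and Mt2 were highest in the Schwann class. Fibroblasts were next for both, whereas Mt3 was highest in the choroid plexus class. The 250 bases before each RefSeq start site (GRCm38.p6, plus strand) were searched on both strands for TGCACNC or TGCGCNC, the core of the metal response element bound by the factor MTF1. Matched bases are in capitals.
Mt1, chr8:94178839-94179088: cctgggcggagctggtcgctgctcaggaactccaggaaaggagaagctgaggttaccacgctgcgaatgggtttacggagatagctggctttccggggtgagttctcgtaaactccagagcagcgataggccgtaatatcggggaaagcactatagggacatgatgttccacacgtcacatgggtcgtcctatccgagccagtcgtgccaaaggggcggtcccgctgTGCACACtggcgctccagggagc
Mt2, chr8:94172368-94172617: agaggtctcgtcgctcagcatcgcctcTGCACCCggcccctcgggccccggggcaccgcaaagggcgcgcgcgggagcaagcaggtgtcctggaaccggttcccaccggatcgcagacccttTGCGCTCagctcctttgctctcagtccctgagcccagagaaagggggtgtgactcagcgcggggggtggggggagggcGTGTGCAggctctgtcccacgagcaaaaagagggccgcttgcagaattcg
Mt3, chr8:94152357-94152606: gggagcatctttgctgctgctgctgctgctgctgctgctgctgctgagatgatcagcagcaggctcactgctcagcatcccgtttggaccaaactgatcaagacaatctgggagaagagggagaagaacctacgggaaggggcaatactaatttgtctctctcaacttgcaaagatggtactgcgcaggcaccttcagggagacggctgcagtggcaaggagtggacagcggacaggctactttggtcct

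The Mt1 window held 1 match, beginning 23 bases before the start site, and the Mt2 window held 3, beginning 223, 128 and 50 bases before it. The Mt3 window held 0. At least 1 match was found in 21.4% of 32851 promoter windows of this length, and at least 3 in 1.26%. A search for TGACNNNGC, the core of the antioxidant response element bound by NRF2, matched 10.2% of all windows and among the 9 members with a window matched Mt2, Sod1 and Prdx1, at 79, 56 and 133 bases before the start. A match in these letters is a description of the sequence and was not related to any binding data. Bases after these RefSeq start sites were not searched. The counts describe these windows only and do not show that a gene lacks either element.

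In the 16 classes with at least 20 cells in each library, Mt1 was found mainly in Schwann cells, fibroblasts, both dendritic classes and macrophages. It was nearly absent from lymphocytes. Among these 16 classes its level was highest in the Schwann class, at 1158 CPM in Sham and 1074 CPM in TBI. The fibroblast class followed at 1056 and 559 CPM, the dendritic class at 384 and 611 CPM, the migratory dendritic class at 242 and 735 CPM, and the macrophage class at 337 and 425 CPM. Among these classes, the Schwann level lay above the fibroblast level in both libraries, though within counting error in Sham, whereas from fibroblasts to macrophages each class overlapped the next. In B cells Mt1 stood at 5.27 and 10.2 CPM and in T cells at 6.39 and 10.1 CPM. In NK cells no Sham UMI and 1 TBI UMI were counted. A small unnamed cluster led by Cspg5, Edn3 and Pax6 (9 Sham and 44 TBI cells) held more Mt1 than any class, at 4807 CPM in Sham (63 UMIs) and 2134 CPM in TBI (177 UMIs). The small pineal class (14 Sham and 29 TBI cells) had 745 CPM in Sham (23 UMIs) and 1554 CPM in TBI (96 UMIs).

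**Figure D1:**
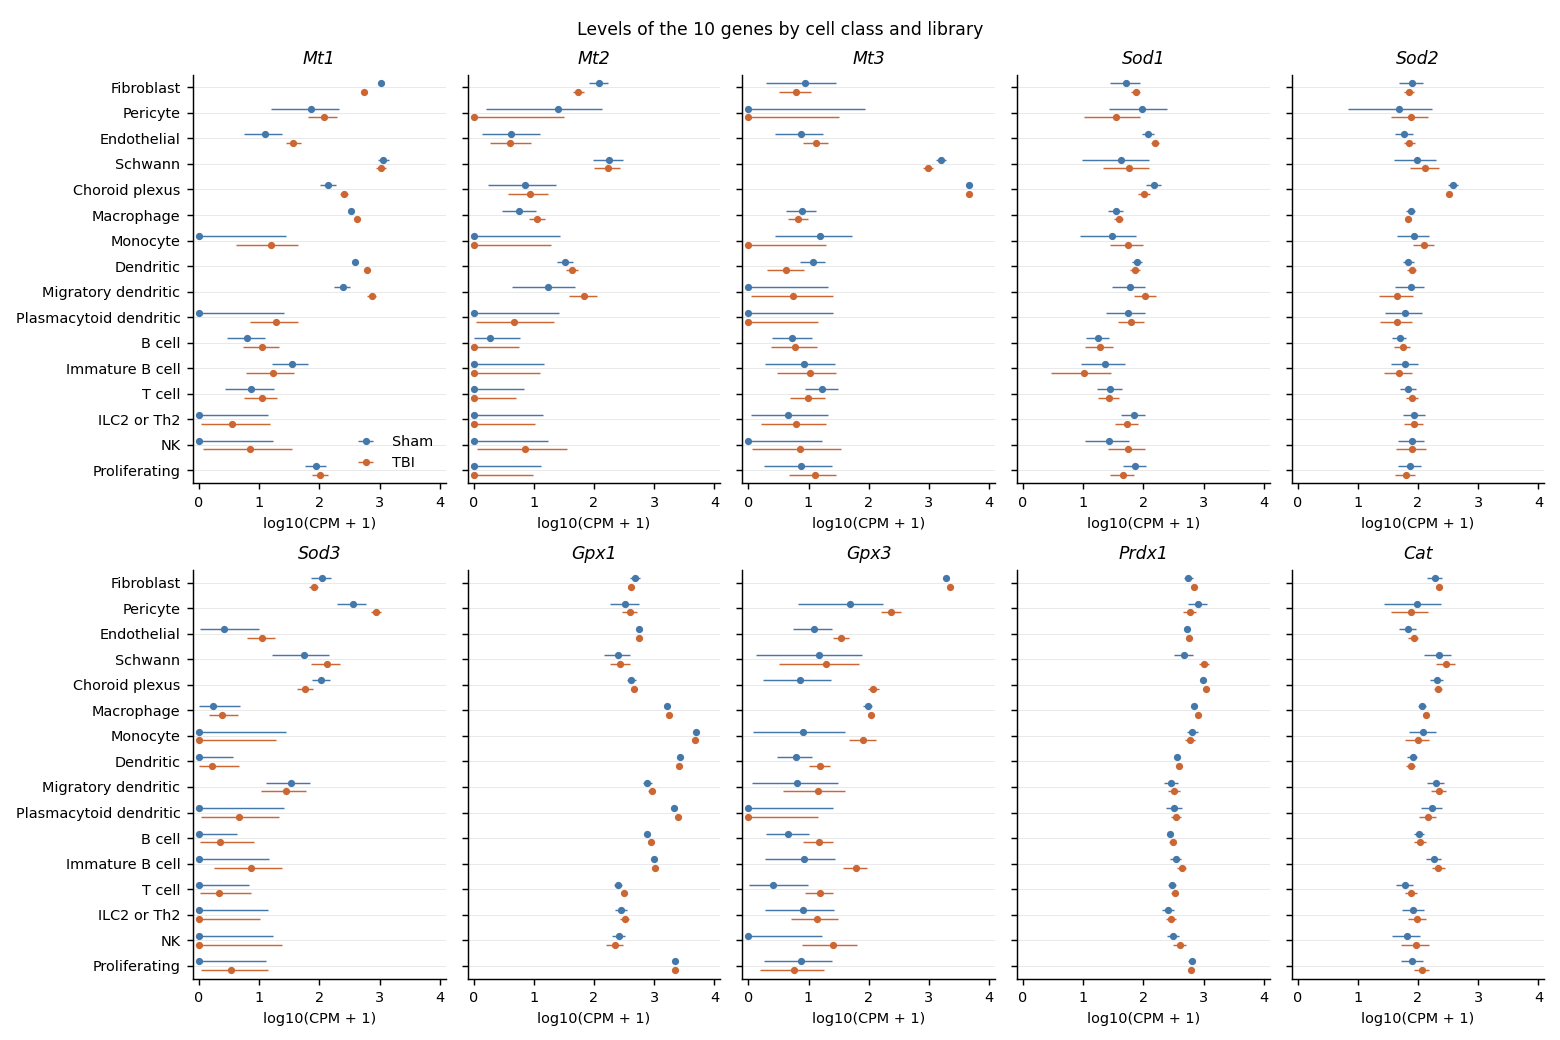
Levels of the 10 genes in 16 classes with at least 20 cells per library, as log10(CPM + 1) of the UMIs summed over the cells of a class, with exact 95% Poisson intervals for counting error, Sham in blue and TBI in orange. Mt3 stands out in the choroid plexus class (4723 CPM in Sham and 4727 CPM in TBI) and Gpx3 in the fibroblast class (1930 and 2251 CPM), while Gpx1 and Prdx1 were measured in all 16 classes.

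To compare cells of unequal depth, each was thinned to 1000 UMIs and shallower cells were dropped (388 in Sham, 539 in TBI). In TBI, 34.6% of macrophage cells then held a Mt1 UMI (95% interval 30.8 to 38.6), against 0.897% of T cells (0.109 to 3.20), at median depths of 5213 and 3157 UMIs before thinning. In Sham the same shares were 35.7% of macrophage cells (29.6 to 42.2) and 0% of T cells (upper bound 2.66). Without thinning, 71.2% of TBI and 65.8% of Sham macrophage cells held a Mt1 UMI. Mt2 UMIs were too few for shares in most classes, and 0 were counted in the T cells of either library. Mt2 did not follow Mt1 everywhere. In macrophages it was only 4.74 CPM in Sham (7 UMIs) and 10.4 CPM in TBI (36 UMIs). Choroid plexus cells held 2 Sham and 6 TBI Mt2 UMIs.

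In fibroblasts both Mt1 and Mt2 were lower in TBI, but 1 Sham cell decided how far. Mt1 was 1056 CPM in Sham (273 UMIs in 48 cells) and 559 CPM in TBI (869 UMIs in 388 cells), a ratio of 0.529 and a log2 ratio of -0.92 (95% interval -1.12 to -0.72). Mt2 stood at 119.9 CPM in Sham (31 UMIs) and 54.0 CPM in TBI (84 UMIs), a log2 ratio of -1.17 (-1.76 to -0.51). A single Sham cell of 5090 UMIs held 103 of the 273 Mt1 UMIs (37.7%) and 14 of the 31 Mt2 UMIs, and the next Sham cell held 18 of Mt1. That cell carried 123 UMIs of the 15 fibroblast markers and 0 of the macrophage and choroid plexus markers, and it was not predicted to be a doublet. Without it the Mt1 levels were 671 CPM in Sham and 559 CPM in TBI, a log2 ratio of -0.27 (-0.50 to -0.02), inside the 1.5-fold limit. With the 1% of cells holding most Mt2 left out of each library, the Mt2 log2 ratio was -0.55, also inside that limit.

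**Figure D2:**
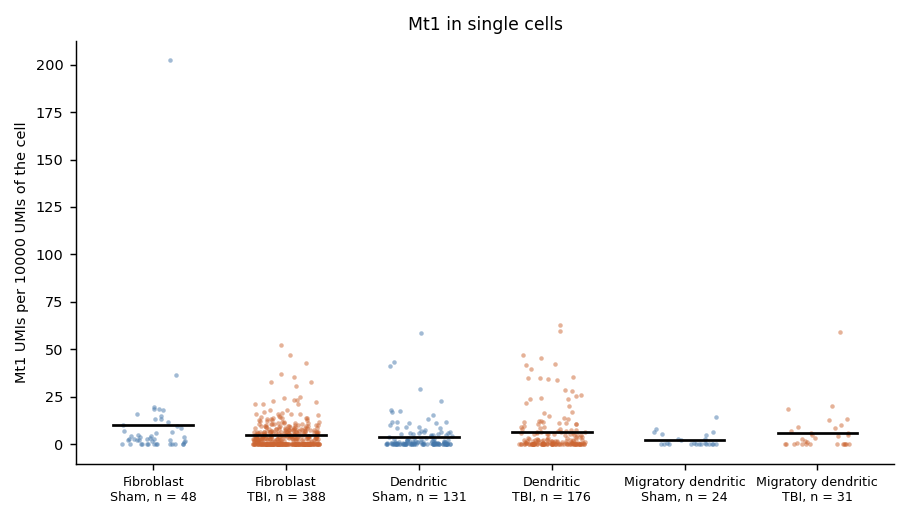
Mt1 UMIs per 10000 UMIs of each cell (points) in the fibroblast, dendritic and migratory dendritic classes of both libraries, with the mean over cells (line). One Sham fibroblast stands at 202 per 10000, while the highest TBI fibroblast stands at 52.1; the medians of the fibroblasts were 3.09 in Sham and 2.82 in TBI.

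The median fibroblast differed less than the sums, with 3.09 Mt1 UMIs per 10000 in Sham and 2.82 in TBI. After thinning, 52.1% of Sham fibroblasts (37.2 to 66.7) and 32.0% of TBI fibroblasts (27.3 to 37.0) held a Mt1 UMI. The bounds 37.2 and 37.0 nearly met, and both come from 1 random thinning. Cells of a library are not replicates of its group, so the intervals do not compare the groups. Without thinning the shares were 70.8% and 60.8%, at median depths of 4814 and 3428 UMIs. The fibroblast class was itself uneven between the libraries, with 2.35% of Sham and 10.3% of TBI cells. It also held cells rich in macrophage genes: when the class was clustered on its own, a subcluster led by C1qa, C1qb and Lyz2 had 1 Sham and 65 TBI cells, and the 17 macrophage markers summed to 271 CPM over the Sham class (7 with a UMI) and 1090 CPM over the TBI class (all 17 with a UMI). Without that subcluster, an alternative added after the data had been seen, the log2 ratio was -0.89 for Mt1 and -1.43 for Mt2, which then had too few UMIs to be counted.

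The study counted more fibroblasts in both libraries than the 48 Sham and 388 TBI cells of the fibroblast class, which may therefore not hold all of them. A cluster led by Ptgds, Snhg11 and Bnc2 stayed unnamed, with 84 Sham and 386 TBI cells. In this unnamed cluster Mt1 was 460.3 CPM in Sham (54 UMIs) and 217 CPM in TBI (157 UMIs), a log2 ratio of -1.10 (-1.54 to -0.61). Mt2 was 51.2 CPM (6 UMIs) and 12.4 CPM (9 UMIs), a log2 ratio of -2.08 (-3.69 to -0.27). Of the 4 members with at least 100 UMIs in this cluster, Mt1 was past 1.5-fold lower, as were 6.33% of 1437 genes, and Gpx1 and Prdx1 were past 1.5-fold higher, as were 12.7%. These cells were shallow, with medians of 1014 and 1564 UMIs, and rich in the nuclear RNA Malat1 at 93530 and 74490 CPM. When this cluster was joined with the fibroblast class, an alternative chosen after the data had been seen, the Mt1 log2 ratio was -0.95 and the Mt2 log2 ratio -1.28. The part of depth and Malat1 in these ratios was not tested.

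In dendritic cells the order was the reverse. Mt1 was 384 CPM in Sham (528 UMIs in 131 cells) and 611 CPM in TBI (956 UMIs in 176 cells), a 1.59-fold ratio and a log2 ratio of 0.67 (0.52 to 0.83). Without the 1% of cells with most Mt1 the log2 ratio was 0.72. After thinning, 30.7% of TBI (24.0 to 38.1) and 20.6% of Sham dendritic cells (14.0 to 28.6) held a Mt1 UMI, and these intervals overlapped. Without thinning the shares were 63.6% and 59.5%, at median depths of 8730 and 11030 UMIs. Mt2 was 32.0 CPM (44 UMIs) in Sham and 42.2 CPM (66 UMIs) in TBI, a log2 ratio of 0.39 whose interval (-0.17 to 0.98) included 0. In the thinned TBI dendritic cells, all 11 cells with a Mt2 UMI also held Mt1, which 54 of the 176 cells did. The rank correlation of Mt1 and Mt2 over those cells was 0.44, a description over cells of 1 library. The pairing was looser in the 378 thinned TBI fibroblasts. There 14 cells held both, 9 held Mt2 without Mt1, and the rank correlation was 0.17.

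Migratory dendritic cells, marked by Ccr7 and Fscn1, had the widest Mt1 ratio among classes with at least 20 cells per library and 100 Mt1 UMIs. Mt1 was 242 CPM in Sham (45 UMIs in 24 cells) and 735 CPM in TBI (165 UMIs in 31 cells), a 3.02-fold ratio and a log2 ratio of 1.59 (1.12 to 2.12). One TBI cell held 59 of the 165 UMIs, and without it the TBI level was 494 CPM and the log2 ratio 1.02 (0.52 to 1.57). Of 504 genes with at least 100 UMIs in these cells, 2.98% were past 1.5-fold higher, among them Mt1 as 1 of 3 members. Markers of other cells differed in the class as well: the 17 macrophage markers summed to 107 CPM in Sham (6 with a UMI) and 2954 CPM in TBI (12 with a UMI), and hemoglobin stood at 4138 and 116 CPM. Their part in the Mt1 ratio was not tested.

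In macrophages Mt1 was slightly higher in TBI, at 425 CPM (1474 UMIs) against 337 CPM (498 UMIs), a log2 ratio of 0.33 (0.19 to 0.48). Both macrophage clusters had it: 473 CPM in Sham and 569 CPM in TBI in the cluster led by Folr2 and Ccl8, and 228 and 279.5 CPM in that led by Slamf9 and Fcgr4. The level thus differed more between the clusters than between the libraries. As a mean over cells rather than a sum, the macrophage log2 ratio was 0.13. An unnamed, shallow cluster led by F630028O10Rik and Adap2 had the opposite order, with 458 CPM in Sham (49 UMIs) and 301 CPM in TBI (83 UMIs), a log2 ratio of -0.61 (-1.13 to -0.06).

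Mt3 was a choroid plexus transcript in these libraries. The class, marked by Ttr and Enpp2, held 85.2% of all Sham Mt3 UMIs and 94.8% of all TBI Mt3 UMIs. Its level was 4723 CPM in Sham (1513 UMIs in 59 cells) and 4727 CPM in TBI (3772 UMIs in 137 cells), a log2 ratio of 0.00 (-0.09 to 0.09). After thinning, 96.2% of Sham and 98.3% of TBI choroid plexus cells held a Mt3 UMI, against 1.46% and 1.79% of T cells, and without thinning 96.6% and 100% did. The choroid plexus level of Mt1 was 141 CPM in Sham (45 UMIs) and 257 CPM in TBI (205 UMIs), a log2 ratio of 0.86 (0.40 to 1.37). Mt1 was the 1 member of 7 past 1.5-fold higher in this class, where 4.44% of 1420 genes were.

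The Schwann class was next, far above T cells, the third in order with 10 Sham and 8 TBI UMIs. Mt3 was 1614 CPM in Sham (117 UMIs in 35 cells) and 971 CPM in TBI (104 UMIs in 46 cells), a log2 ratio of -0.73 (-1.13 to -0.34). Its Mt3 was uneven: the cluster led by Gfra3 and Kcna1, with 19 of the Sham and 36 of the TBI cells, held 1 of the Sham and 2 of the TBI UMIs. The part of this unequal mix of cells in the ratio was not tested. One TBI cell held 51 of the 104 TBI UMIs, and without it the log2 ratio was -1.58 (-2.09 to -1.11). Mt3 was 1 of 3 members past 1.5-fold lower in the class, as were 4.62% of 238 genes. Mt1 in the Gfra3-led cluster was 376 CPM in Sham and 677 CPM in TBI, below the level of the whole class in both libraries.

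A count in the small pineal class shows how 1 barcode can set a level. Mt3 was 67 UMIs in 14 Sham cells and 4 UMIs in 29 TBI cells. One Sham barcode of 15499 UMIs held 66 of the 67, together with 2659 UMIs of choroid plexus markers and 71 of pineal markers. Without it the levels were 65.0 CPM (1 UMI) and 64.8 CPM (4 UMIs).

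The other 7 members lie on other chromosomes (GRCm38): Sod1 at chr16:90220754-90226329, Sod2 at chr17:13006846-13040063, Sod3 at chr5:52363791-52371418, Gpx1 at chr9:108338903-108340343, Gpx3 at chr11:54902453-54910377, Prdx1 at chr4:116685544-116700822 and Cat at chr2:103453849-103485160. All are protein-coding in the annotation.

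Sod1 and Sod2, the intracellular dismutases, were counted in all 16 classes. Sod1 was highest in the endothelial class, at 118 CPM in Sham (73 UMIs) and 156 CPM in TBI (204 UMIs), a log2 ratio of 0.40 (0.01 to 0.81). Its range overlapped that of the choroid plexus class, at 147 and 101.5 CPM, and B cells were near the low end at 16.7 and 17.8 CPM. Within the endothelial class, the cluster led by Vwf, Slc38a5 and Cldn5 had 87.9 CPM in Sham (14 UMIs) and 189 CPM in TBI (92 UMIs), a log2 ratio of 1.06 (0.29 to 2.03). In the capillary-type cluster led by Igfbp3 and Gpihbp1, Sod1 was 129 and 136 CPM, a log2 ratio of 0.08 (-0.38 to 0.57).

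Sod2 was highest in the choroid plexus class, at 384 CPM in Sham and 329.6 CPM in TBI, above the Schwann class at 96.5 and 131 CPM in both libraries. All other classes with at least 20 cells per library had a mean of 105 CPM or less. In fibroblasts Sod2 was 77.3 CPM in Sham (20 UMIs) and 68.8 CPM in TBI (107 UMIs). One Sham cell held 13 of the 20, and without the 1% of cells with most Sod2 the log2 ratio went from -0.20 to 1.12, so 1 cell sets the direction in fibroblasts.

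Sod3, the secreted dismutase, was highest in pericytes. The pericyte class, marked by Rgs5 and Notch3, was highest at 356 CPM in Sham (15 UMIs in 22 cells) and 882 CPM in TBI (105 UMIs in 71 cells), a log2 ratio of 1.27 (0.52 to 2.20). One TBI barcode of 7505 UMIs held 41 of the 105, with 67 UMIs of pericyte markers and 115 of fibroblast markers. Without it the TBI level was 574 CPM and the log2 ratio 0.66 (-0.14 to 1.61). Sod3 was 1 of 2 members past 1.5-fold higher among pericytes, where 15.1% of 192 genes were. In fibroblasts Sod3 was 108 CPM in Sham (28 UMIs) and 79.1 CPM in TBI (123 UMIs), a log2 ratio of -0.47 (-1.06 to 0.19). The Schwann class, at 55.2 CPM (4 UMIs) and 131 CPM (14 UMIs), and the choroid plexus class, at 106 CPM (34 UMIs) and 57.6 CPM (46 UMIs), overlapped the fibroblasts. In macrophages Sod3 was 0.677 CPM (1 UMI) and 1.44 CPM (5 UMIs).

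Over all cells, Sod3 was 12.5 CPM in Sham and 26.8 CPM in TBI, and Gpx3 was 96.5 and 327 CPM. The fibroblast class, where Gpx3 was highest, took 3.29% of Sham and 11.2% of TBI UMIs. Within it the Gpx3 level was 1930 CPM in Sham (499 UMIs) and 2251 CPM in TBI (3502 UMIs), a log2 ratio of 0.22 (0.09 to 0.36), or 0.43 without the C1qa-led subcluster.

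Gpx3, the secreted plasma glutathione peroxidase, varied widely among fibroblasts. When the fibroblasts were clustered anew, again without the 10 genes, the subcluster led by Chad and Bglap2 had 6402 CPM (2803 UMIs; interval 6167 to 6643), and that led by Col15a1 and Ccl11 had 3647 CPM. The subcluster led by Nr4a2 and Penk had 116 CPM (85.9 to 153), and that led by Ptgds and Cxadr, the one with 3 arachnoid layer markers among its 50 leading genes, had 77.0 CPM (52.3 to 109). The subcluster led by Gm28119 and Epha3 had 2424 CPM and the C1qa-led one 1033 CPM. Mt1 did not follow that order: it was 534 CPM in the Chad-led, 286 CPM in the Col15a1-led, 249 CPM in the Gm28119-led, 470 CPM in the C1qa-led, 999.9 CPM in the Nr4a2-led and 708 CPM in the Ptgds-led subcluster. In TBI alone, Mt1 was 565 CPM in the Chad-led, 735 CPM in the Nr4a2-led and 647 CPM in the Ptgds-led subcluster. Each subcluster held 1 to 11 Sham cells, so ratios between the libraries within subclusters rest on few cells. The Nr4a2-led subcluster held 166 of the 273 Sham Mt1 UMIs, the cell with 103 among them, and Mt1 was 2373 CPM in its 11 Sham cells. In the Chad-led subcluster it was 367 CPM in Sham.

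**Figure D3:**
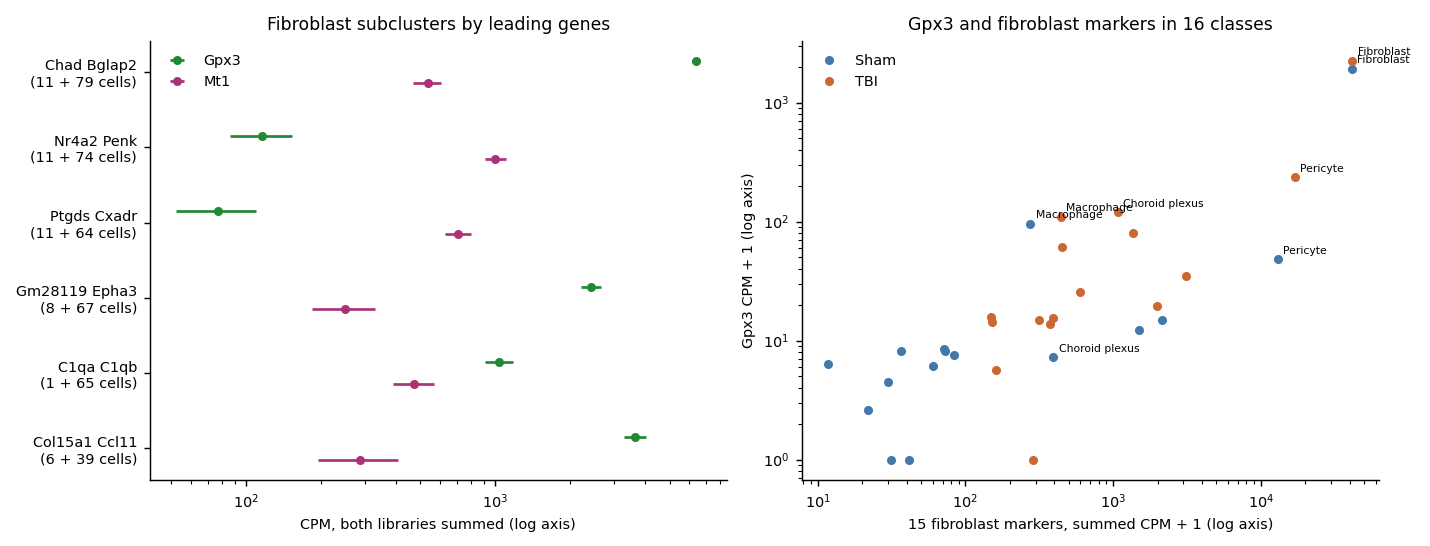
Left, Gpx3 (green) and Mt1 (purple) levels in 6 fibroblast subclusters named by leading genes, in CPM over both libraries with exact 95% Poisson intervals, with Sham plus TBI cell numbers. Right, Gpx3 CPM plus 1 against the summed CPM plus 1 of 15 fibroblast markers in 16 classes of each library; most TBI points (orange) lie right of and above the Sham points (blue) of the same class.

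Outside fibroblasts, Gpx3 was low in Sham and higher in TBI in most classes. Among 14 classes other than fibroblasts and macrophages, the Gpx3 level was higher in TBI in 12, with a median of 6.43 CPM in Sham and 16.7 CPM in TBI. The 15 fibroblast markers, summed, were higher in TBI in 13 of the same 14 classes, with medians of 65.0 and 420 CPM. In B cells, for instance, Gpx3 was 3.52 CPM (4 UMIs) and 13.9 CPM (11 UMIs), beside 29.0 and 312 CPM of fibroblast markers, of which 9 of 15 in Sham and all 15 in TBI had a UMI. The hemoglobin-rich barcodes set aside by the filter had 5.58 CPM in Sham (8 UMIs) and 118 CPM in TBI (95 UMIs). In TBI 1 of these barcodes held 69 of the 95, so that level rests largely on 1 barcode. The part of RNA from other cells in these differences was not tested.

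The choroid plexus class had the widest Gpx3 ratio among classes with a Sham UMI. It counted 2 Sham UMIs (6.24 CPM) and 95 TBI UMIs (119 CPM), a log2 ratio of 3.94 (2.36 to 7.32). A single TBI barcode of 14763 UMIs held 65 of the 95, with 1672 UMIs of choroid plexus markers and 306 of fibroblast markers, and it was predicted to be a doublet. Without it the TBI level was 38.3 CPM (30 UMIs) and the log2 ratio 2.32 (0.64 to 5.73). The fibroblast markers of the class summed to 393 CPM in Sham and 1080 CPM in TBI.

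In macrophages Gpx3 came mainly from 1 of the clusters. The Folr2-led cluster had 195 CPM in Sham (128 UMIs) and 181 CPM in TBI (314 UMIs), while the Slamf9-led cluster had 15.9 CPM (13 UMIs) and 37.5 CPM (65 UMIs). The whole class stood at 95.4 and 109 CPM, beside 274 and 439.9 CPM of fibroblast markers. Its Gpx3 was 34.8% of that marker sum in Sham and 24.8% in TBI, against 4.66% and 5.39% in fibroblasts. Classes with few Gpx3 UMIs could also exceed the fibroblast share, as Sham B cells did at 12.1% (4 UMIs). The part of fibroblast RNA in the macrophage Gpx3 was not tested.

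Gpx1, the intracellular glutathione peroxidase, was highest in monocytes, followed by dendritic cells. Its level was 4892 CPM in Sham (683 UMIs) and 4807 CPM in TBI (969 UMIs) in monocytes, 2680 and 2569 CPM in dendritic cells, 2151 and 2501 CPM in plasmacytoid dendritic cells and 1634 and 1759 CPM in macrophages. It was lowest in NK cells, at 256 and 220.3 CPM. Monocytes were above dendritic cells in both libraries. The Slamf9-led macrophage cluster had 2051 CPM in Sham and 2146 CPM in TBI, above the Folr2-led cluster at 1113 and 1374 CPM, so here the macrophage clusters stood in the reverse order to Mt1 and Gpx3. Between the libraries the log2 ratio was 0.11 (0.04 to 0.18) in macrophages, -0.06 (-0.13 to 0.00) in dendritic cells and -0.03 (-0.17 to 0.12) in monocytes.

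Prdx1, a peroxide-reducing peroxiredoxin, was the most evenly spread of the 10 by the ratio of its highest class to the median class. Its highest class mean was 2.22 times the median over 16 classes, little below the 2.35 of Sod1 and the 2.36 of Cat. The same ratio was 6.98 for Gpx1, 147 for Gpx3 and 700 for Mt3. The choroid plexus class led at 983 CPM in Sham and 1099 CPM in TBI, but its range overlapped that of the Schwann class. In macrophages Prdx1 was 685 CPM (1013 UMIs) and 796 CPM (2764 UMIs), a log2 ratio of 0.22 (0.11 to 0.32), which as a mean over cells was -0.03.

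Schwann cells had the largest Prdx1 ratio between the libraries. The level was 469 CPM in Sham (34 UMIs in 35 cells) and 1027 CPM in TBI (110 UMIs in 46 cells), a 2.17-fold ratio and a log2 ratio of 1.12 (0.57 to 1.73). In the Gfra3-led cluster it was 517 and 915 CPM, a log2 ratio of 0.80 (0.11 to 1.59). The most Prdx1 UMIs in 1 TBI cell were 12 of the 110. Prdx1 was 1 of 3 members past 1.5-fold higher in the class, where 11.3% of 238 genes were.

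Cat, which breaks down hydrogen peroxide in peroxisomes, varied little among classes. The highest levels were 221 and 289 CPM in Schwann cells, 199 and 223 CPM in migratory dendritic cells, 203 and 210.5 CPM in choroid plexus cells and 189.5 and 219 CPM in fibroblasts, all overlapping. T cells were lowest at 59.1 and 76.1 CPM. No class with at least 100 Cat UMIs had a ratio past 1.5-fold.

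Across the 6 largest classes compared, few of the members tested were past 1.5-fold, and the counts were read against all genes with at least 100 UMIs. In macrophages 0 of 7 members were higher and 0 lower, against 1.94% and 1.43% of 5471 genes. In fibroblasts 0 of 9 were higher, against 5.65% of 3382 genes, and 2 (Mt1 and Mt2) were lower, against 5.91%. In endothelial cells 0 of 5 were higher and 0 lower, against 3.3% and 1.68% of 3693 genes. In B cells 0 of 3 were higher and 0 lower, against 2.09% and 2.33% of 2923 genes, and in T cells 0 of 4, against 1.59% in each direction of 2263 genes. In dendritic cells 1 of 7 (Mt1) was higher, against 1.99% of 3313 genes, and 0 were lower, against 1.42%. Median log2 ratios of the members were 0.19 in macrophages, -0.20 in fibroblasts and 0.28 in endothelial cells. They were 0.14 in B cells, 0.26 in T cells and 0.07 in dendritic cells. Those of all tested genes lay between -0.02 and 0.02. Each member median rests on only 3 to 9 genes. No spread was worked out for sets that small, so the distance from the median of all genes was not tested.

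**Figure D4:**
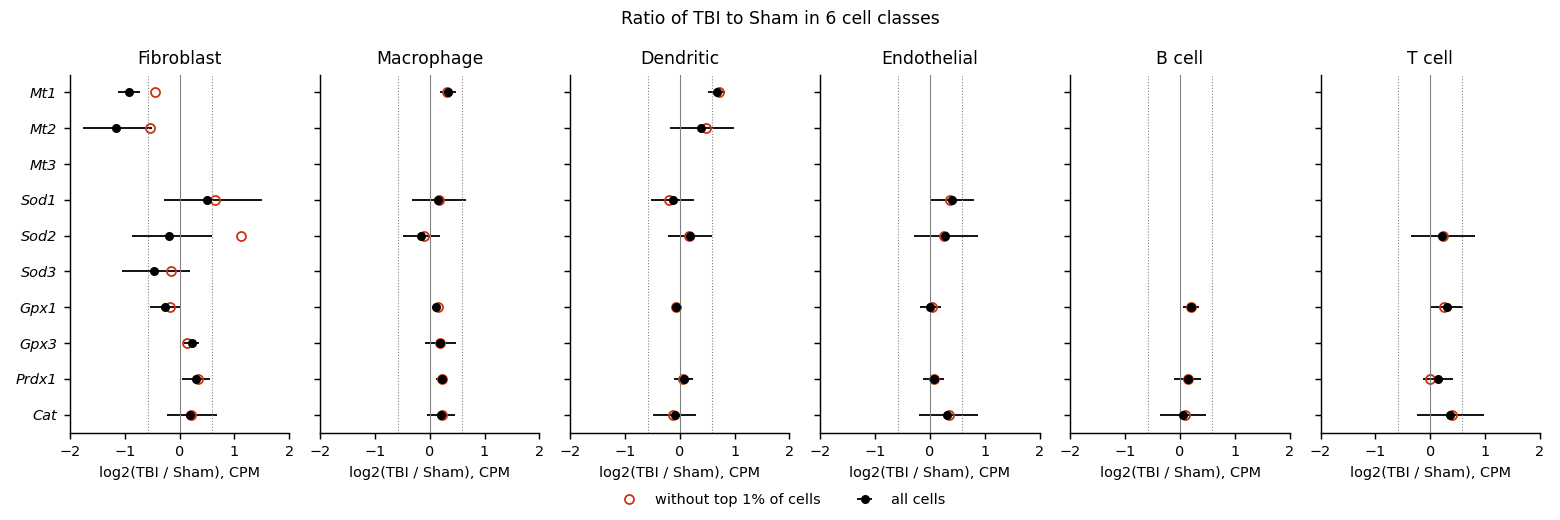
Log2 ratio of TBI over Sham CPM for members with at least 100 UMIs in each of 6 classes (black, with exact 95% binomial intervals for counting error) and without the 1% of cells holding most UMIs of the member (red circles); dotted lines mark 1.5-fold. Mt1 lies left of 0 in fibroblasts (-0.92, or -0.44 without those cells) and right of 0 in dendritic cells (0.67).

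The genes that work beside the members gave few ratios of that size. Their counts stand beside the same shares of all tested genes. Those were 1.94% higher and 1.43% lower in macrophages, 5.65% and 5.91% in fibroblasts, and 1.99% and 1.42% in dendritic cells. Among 11 other peroxidases and peroxiredoxins, 6 were tested in macrophages and none passed 1.5-fold, with the lipid peroxidase Gpx4 at 407 CPM in Sham and 381 CPM in TBI and Prdx5 at 475 and 409 CPM. In fibroblasts 1 of 8 was higher, the mitochondrial peroxiredoxin Prdx3 at 58.0 and 91.3 CPM (log2 ratio 0.61, -0.12 to 1.53). Of the thioredoxin and glutathione genes, 1 of 11 was higher in macrophages: Ccs, the copper chaperone that loads Sod1, at 29.8 and 47.5 CPM (0.66, 0.19 to 1.19). In dendritic cells 1 of 9 was higher, Gclm, a subunit of the enzyme that makes the glutathione precursor, at 37.1 and 67.2 CPM (0.85, 0.36 to 1.37). In fibroblasts 1 of 7 was higher, Glrx2. Of the glutathione transferases, 0 of 5 passed in macrophages and 0 of 7 in fibroblasts.

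NRF2, encoded by Nfe2l2, switches on many antioxidant genes. Of its list, 0 of 11 genes passed in macrophages and 1 of 7 in fibroblasts, where Keap1, its inhibitor, was 23.2 CPM in Sham (6 UMIs) and 72.7 CPM in TBI (113 UMIs). Glutathione peroxidases need selenium, which Selenop carries. Selenop was 541 CPM in Sham and 844 CPM in TBI in fibroblasts (0.64, 0.39 to 0.90), the 1 of 6 selenium genes past 1.5-fold there, while in macrophages 0 of 9 passed and Selenop was 3204 and 3902 CPM. In choroid plexus cells Selenop was 28.1 CPM (9 UMIs) and 159 CPM (127 UMIs), beside 43.7 CPM of macrophage markers in Sham (7 of 17 with a UMI) and 972 CPM in TBI (all 17). The part of macrophage RNA in the Selenop values was not tested.

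Of the metal response and transport genes, 0 of 11 passed in macrophages and 1 of 6 was lower in fibroblasts, the zinc transporter Slc39a13 at 116 and 77.8 CPM (-0.60, -1.16 to 0.05). Glucocorticoids are a known input to Mt1 and Mt2. Among other genes that they induce, 0 of 7 passed in macrophages. In dendritic cells 1 of 4, Sult1a1, was higher, where 1.99% of all genes were. In fibroblasts 2 of 8 were lower, Ddit4 at 193 and 93.2 CPM (-1.06, -1.53 to -0.56) and Errfi1 at 159 and 87.4 CPM, against 5.91% of all genes. Dusp1 was higher at 85.1 and 167 CPM, 1 of the same 8, against 5.65%. The list's most abundant gene, Tsc22d3, was 518 and 489 CPM in fibroblasts. The median log2 ratio of the tested glucocorticoid-induced genes was 0.15 in macrophages, -0.125 in fibroblasts and -0.075 in dendritic cells. The part of glucocorticoids in the Mt1 and Mt2 ratios was not tested. Of the NADPH oxidase genes, which make superoxide, 0 of 9 passed in macrophages and 0 of 2 in fibroblasts.

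Of the genes induced during tissue dissociation, some were past 1.5-fold in each of the 6 classes except T cells. In fibroblasts 4 of 16 were higher in TBI (Junb, Dusp1, Klf2 and Nr4a1), where 5.65% of all genes were, and 0 lower, and the list summed to 2034 CPM in Sham and 2539 CPM in TBI. In dendritic cells 1 of 14 was higher (Atf3), where 1.99% of all genes were, and 3 lower (Hspa1a, Hspa1b and Klf4), where 1.42% were. The list summed there to 2145 CPM in Sham and 1993 CPM in TBI. In macrophages 2 of 17 were higher (Egr1 and Ier3), against 1.94% of all genes. In endothelial cells 4 of 18 were higher and 2 lower, against 3.3% and 1.68%. In B cells 2 of 10 were higher, against 2.09%, and in T cells 0 of 8 passed, against 1.59% in each direction. Their part in the Mt1 ratios was not tested. Red cell genes were lower in TBI in 5 of the 6 classes, by 4 of 5 in macrophages, dendritic, endothelial and B cells and 3 of 4 in T cells, all hemoglobins, and 0 of 2 passed in fibroblasts.

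Some genes shared a member's order of levels closely. Over 16 classes and 3544 genes with at least 1000 UMIs, log2(CPM + 10) of Mt3 was nearest to Sostdc1 (Pearson r = 0.99), Cab39l (0.94) and Ppp1r1b (0.92), each highest in choroid plexus cells. Gpx1 was nearest to Nfam1 (0.96), Tifab (0.94) and Cybb (0.92), each highest in monocytes. Gpx3 was nearest to Olfml3 (0.92), Serpinf1 (0.91) and Igfbp5 (0.91), each highest in fibroblasts. Sod2 was nearest to Gpx4 (0.92), Ppp1r1b (0.91) and 2900040C04Rik (0.90), and Sod3 to Meg3 (0.90), Ndrg2 (0.89) and Tpm1 (0.88).

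Mt2 was nearest to Mt1 (0.85), followed by Yif1b (0.80) and Cdkn1a (0.78). Among the genes with enough UMIs to be listed, Mt1 was nearest to Atpif1 (0.85), Rtn4 (0.84) and Cdkn1a (0.81). Mt2 (120 Sham and 286 TBI UMIs) and Sod3 (98 and 374) had too few UMIs to be listed as a nearest gene. The correlation of Mt1 with Mt2 is the same in either direction, at 0.849, against 0.847 for Mt1 with Atpif1. The absence of Mt2 from the genes nearest to Mt1 thus comes from the UMI minimum. It says nothing about their likeness. Prdx1 was nearest to Twf1 (0.90), Mrfap1 (0.89) and Mettl9 (0.87). The likeness was loosest for Sod1, with Spr (0.78), Ctnna1 (0.78) and Smim10l1 (0.76), and for Cat, with Plin3 (0.75), Tmem242 (0.74) and Arf4 (0.72). The points of these correlations are classes of the same pair of libraries, which differ in depth and cell number, and no p is given.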

How the data were processed

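Droplet single-cell RNA-seq counts were analysed for 1 Sham and 1 TBI library. The deposited values are whole UMI counts per gene and barcode, which the authors made with Cell Ranger against mm10; the submitters' processing notes name version 2.1.1 and the matrix headers 3.1.0.

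Here, cells with 150 to 5000 genes, at most 20% mitochondrial and at most 5% hemoglobin UMIs were kept, following the limits the methods state. On log values of UMIs per 10000, 2000 variable genes (members left out), 20 components, 20 neighbours and Leiden resolution 0.8 (seed 1) gave 26 clusters, named when 3 or more class markers were among the 50 leading genes. Predicted doublets (33 Sham, 114 TBI) were left in. UMIs were summed per class and library; the log2 ratio adds 0.5 to each sum. Levels are CPM of those sums. A gene counts as past the limit at 1.5-fold with at least 100 UMIs. At a floor of 3 counts the depth allows 0.381 CPM in the Sham library and 0.215 CPM in the TBI library. The ratio was also run on simulated Poisson counts per class. Those lack single cells that hold many UMIs of a gene, so that run bears on counting error only.

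The members and lists were chosen with earlier results of these data known. Text names all members, for each its 3 nearest genes, and from each list genes of the 2 highest UMI totals or past the limit in macrophages or fibroblasts; classes and clusters beyond the 6 compared, the other genes named, and ratios without 1 cell were chosen after values were seen. Promoters came from RefSeq (GRCm38.p6; 9 of 10 members matched, Sod3 did not). Tools were numpy 2.4.6, scipy 1.17.1, scikit-learn 1.9.0 and leidenalg 0.10.2.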

Additional observations from a re-analysis of the deposited data

Results flagged for a closer look

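Mt1 stood in opposite order in 2 of the 6 classes compared: its log2 ratio of TBI over Sham was -0.92 in fibroblasts and 0.67 in dendritic cells. The difference between the classes was not tested, since each group is 1 library, and the fibroblast value was -0.27 without the 1 Sham cell that held 103 of 273 UMIs.

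Gpx1 and Cat were highest in barcodes that the hemoglobin limit had set aside and that enter no comparison above. In the 604 Sham and 431 TBI barcodes over that limit, Gpx1 stood at 12910 and 11130 CPM and Cat at 940.6 and 818.7 CPM, above every class of filtered cells in both libraries. Per 1000 hemoglobin UMIs, these barcodes held 18.3 Gpx1 UMIs in Sham and 17.8 in TBI, and 1.34 and 1.31 Cat UMIs. At that ratio, the hemoglobin counted in Sham T cells would come with 26.6 CPM of Gpx1, which is 10.6% of their Gpx1 level of 251 CPM; in TBI T cells it would come with 4.50 CPM, 1.45% of 311 CPM. In macrophages it would come with 1.86% of the Sham and 0.207% of the TBI level.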

How the results depend on the processing

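With all cells, 1 pair of member and class was past 1.5-fold higher and 2 were lower. The count higher was 2 at a clustering resolution of 1.6, 3 without the 1% of cells with most UMIs of the member, 0 at a limit of 2-fold and 5 with genes of at least 30 UMIs admitted. The count lower was 0 without those cells, 1 at 2-fold and 1 without the C1qa-led fibroblast subcluster, where Mt2 had fewer than 100 UMIs. With no hemoglobin limit, 6 of the 10 members kept the class reported as highest: Gpx1 and Cat were then highest in an erythroid class, and Mt1 and Mt2 in the pineal class. In the pineal class, the Mt1 log2 ratio of 1.04 (23 Sham and 96 TBI UMIs) became -0.18 with a hemoglobin limit of 1%, -0.22 with none and -0.057 at resolution 0.4; the cause was not tested. Over the alternatives, the Mt1 log2 ratio ranged from -1.03 to -0.27 in fibroblasts, from 0.64 to 0.76 in dendritic cells, from 1.02 to 1.78 in migratory dendritic cells and from 0.75 to 1.32 in choroid plexus cells. That of Mt2 in fibroblasts ranged from -1.43 to -0.55, that of Prdx1 in Schwann cells from 1.00 to 1.22 and that of Sod3 in pericytes from 0.66 to 1.41. Shares of cells with a UMI depend on depth: 50 of 51 shares moved past their interval without thinning. No paired analysis was possible because each group has 1 library.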
